A study of Homo sapiens with 18 samples.

Results

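A splice junction is the place in a mature RNA where the ends of adjoining exons meet, and a junction probe set spans that place, so that it reports RNAs in which those exons were joined. The junctions described here were those whose level differed from control in MDA-MB-231 cells kept with paclitaxel and stayed near control in cells given exogenous TRA2A. They were chosen on values of the same arrays: a mean over the 9 arrays of at least 3.89, a PTX minus control difference of at least 2 in either direction, no overlap between the 3 PTX and the 3 control values, and a 231T minus control difference under 1 in size, all on the log2 scale. The rule found 718 junctions, 508 higher and 210 lower in PTX, of the 249240 junctions that had the mean it asks for and of 339146 junction probe sets in all. Members were thus 0.288% of the junctions with that mean, with 0.204% higher and 0.0843% lower. Because these contrasts chose the members, their differences are descriptions, and no test is given for them.

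MDA-MB-231 is an established cell line from a human breast cancer that lacks the hormone receptors and HER2. The PTX cells were the line grown in medium with 10 nM paclitaxel, the 231T cells were the line with a TRA2A vector, and the control cells are labelled as the line itself, with 3 arrays for each group. The description of control replicates 2 and 3 writes the line's name with another final digit, and their source and cell line labels were followed. The labels give no length of treatment, no clone and no empty vector, and they do not say whether a group's arrays were made from separate cultures, so the spread between them may be technical. Paclitaxel binds beta-tubulin and stabilises microtubules, which holds dividing cells in mitosis. TRA2A is a serine/arginine-rich protein that binds exonic RNA and influences which exons are joined. A junction probe set reads the amount of a gene's RNA as well as which exons are joined in it, so each member was also set against the exon-part probe sets of its own gene.

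Values were RMA log2 values on a scale that reached 19.93, and a difference of 1 on it is not taken as a doubling of RNA. The median over exon parts and junctions was 5.11 to 5.18 on the PTX arrays, 4.70 to 4.75 on the 231T arrays and 5.10 to 5.13 on the control arrays. For 2995 probe sets that stood in both the exon-level and the gene-level tables, the values of the 231T arrays were equal (100% within 0.0001), while those of the PTX and control arrays had median absolute differences of 0.245 to 0.253 between the tables. How the tables came to differ is not stated in the labels. The rule's condition on 231T minus control is read across that difference and across the lower 231T median, whose part in it was not tested: with each array centred on its own median, the rule found 412 higher and 328 lower junctions. VIM (13.10 to 13.19 on all arrays) and AXL (14.33 to 16.17), which mark this mesenchymal-like line, were high at gene level, and ESR1 (3.53 to 3.84), PGR (3.43 to 3.85) and CDH1 (3.72 to 4.13) were low. KRT8 and KRT18, which had been listed as low, were not, with 11.88 to 13.48 for the chromosome 12 cluster of KRT8 and 12.01 to 12.95 for KRT18. Fibroblast markers lay between 3.37 and 4.18 on all arrays, with 4 of 5 genes matched to a transcript cluster. Of the leukocyte markers CD3E lay between 3.81 and 4.5 and PTPRC between 3.53 and 3.92, while CD68, also on that list, lay between 13.13 and 15.63.

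The genes with the most member junctions higher in PTX were FN1 (20), CDH11 (7), DST (6), MKI67 and PCNT (5 each) and SMC4 (4). The proteins of FN1, CDH11 and DST act in matrix and adhesion, that of PCNT at the centrosome, and those of MKI67 and SMC4 on chromosomes. NCAPG, whose protein also acts on chromosomes, held 3, as did CENPF, HMMR, PIK3C2A, RBM25, SMC1A, SMC3 and TMEM63A. FN1 encodes fibronectin, which cells secrete and bind through integrins. MKI67 encodes Ki-67, the coat protein of mitotic chromosomes used to mark dividing cells, and NCAPG encodes a subunit of condensin. The 250 bases before the annotated start of FN1, MKI67 and NCAPG are shown. In each gene most tested junctions were higher by at least 1 (47 of 52 for FN1, 19 of 21 for MKI67 and 18 of 23 for NCAPG). Sequences are from RefSeq on GRCh38.p14, in the direction of transcription, on the - strand of chr2:215436069-215436318 for FN1, the - strand of chr10:128126424-128126673 for MKI67 and the + strand of chr4:17810729-17810978 for NCAPG. Capitals mark matches on either strand to a cAMP response element (TGACGTCA), to the CCAAT box (CCAAT), or to the cell cycle genes homology region (CHR, TTTGAA or TTCGAA), a motif known from promoters of genes of cell division.
FN1: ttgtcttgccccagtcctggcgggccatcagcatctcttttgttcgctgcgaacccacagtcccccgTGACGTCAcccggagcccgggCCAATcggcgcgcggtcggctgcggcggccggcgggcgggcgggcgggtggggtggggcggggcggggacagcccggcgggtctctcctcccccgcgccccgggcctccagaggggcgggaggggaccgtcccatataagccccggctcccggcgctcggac
MKI67: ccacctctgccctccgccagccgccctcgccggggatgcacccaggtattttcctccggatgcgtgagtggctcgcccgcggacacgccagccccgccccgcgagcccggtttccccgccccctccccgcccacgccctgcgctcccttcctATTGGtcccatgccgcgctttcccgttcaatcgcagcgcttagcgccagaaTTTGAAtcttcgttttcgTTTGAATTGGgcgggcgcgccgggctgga
NCAPG: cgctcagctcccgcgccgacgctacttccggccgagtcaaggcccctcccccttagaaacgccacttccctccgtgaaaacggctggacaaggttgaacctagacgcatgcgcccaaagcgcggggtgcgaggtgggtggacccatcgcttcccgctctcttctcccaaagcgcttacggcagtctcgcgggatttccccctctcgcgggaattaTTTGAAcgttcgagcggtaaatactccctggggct
The FN1 window held 1 cAMP response element and 1 CCAAT box, the MKI67 window 2 CHR and 2 CCAAT matches, of which a CHR and a CCAAT match overlap, and the NCAPG window 1 CHR match. Of the 14 genes with at least 3 members higher in PTX, 13 had an entry in the promoter table, and CDH11 did not. A CHR match stood in 5 of the 13 (HMMR, MKI67, NCAPG, SMC3 and SMC4), against 14.6% of 27305 promoters of this length. A CCAAT match stood in 8 of the 13, against 33.0% of all promoters, and the cAMP response element in 1 of the 13, against 1.77%. A match is a run of letters and was not tested as a site. The genes were chosen by their members, and whether their promoters bear on the differences was not tested.

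Across the 508 higher members, the median PTX minus control difference was 2.32 (range 2.00012 to 5.73) and the median 231T minus control difference was 0.17, which was 0.57 with each array centred on its median and 0.45 after quantile normalization. Their medians on the single arrays were 8.17, 8.17 and 8.28 in PTX, 6.01, 5.98 and 5.69 in 231T and 5.82, 5.67 and 5.68 in control. The differences were close to the rule's limit for most: 63 reached 3 and 9 reached 4. Just inside and outside the limit of 2 lay junctions at 2.00012 and 1.99828, and at the limit of 1 for 231T they lay at 0.99896 and 1.00007. Across the 210 lower members, the median PTX minus control difference was -2.22 (range -4.15 to -2.01) and the median 231T minus control difference was -0.40, which is also the median over all junctions tested and was -0.01 with centred arrays and -0.15 after quantile normalization. The lower members had medians of 6.90, 5.47 and 6.47 on the PTX arrays, 8.68, 8.74 and 8.64 on the 231T arrays and 8.64, 8.93 and 8.36 on the control arrays. Of the lower members, 5 reached a size of 3 and 1 reached 4, and the junctions just inside and outside the limits were at 2.00673 and 1.99988 for PTX and at 0.998347 and 1.00112 for 231T.

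**Figure D1:**
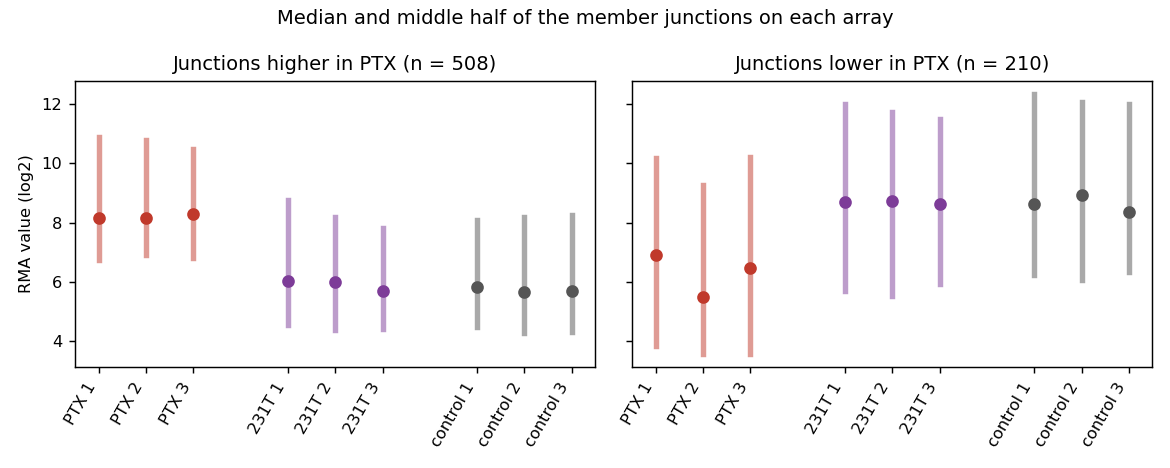
Median (points) and middle 50% (bars) of the RMA log2 values of the 508 higher (left) and 210 lower (right) member junctions on each of 9 arrays. The PTX medians stand apart from the others by the rule's construction, and PTX replicate 2 has the lowest median of the lower members, 5.47.

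The spread between arrays was larger for the members than for junctions in general. The median SD within PTX was 0.73 for higher and 0.64 for lower members, against 0.56 over all tested junctions. Within 231T it was 0.86 for higher and 0.70 for lower members, against 0.54, and within control 0.71 and 0.51, against 0.49. A mean below the filter of 3.89 in control was seen for 62 higher members, and a mean below it in PTX for 56 lower members. Leaving out any 1 array kept the PTX minus control difference at 2 or more in size for 169 higher and 53 lower members. It took the difference under 1 for 3 higher and 2 lower members. Of the 718 members, 103 met the whole rule in all 9 leave-outs, 74 higher and 29 lower. Values on all arrays were shared with another probe set for 40 members, so that the 508 higher members held 491 distinct patterns and the 210 lower members 203.

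A mean near control did not put every 231T array near control. All 3 of the 231T arrays lay within 1 of the control mean for 140 of the 508 higher and 72 of the 210 lower members. The PTX arrays overlapped none of the 231T arrays for 380 higher and 146 lower members, and for the others the groups overlapped. The rule itself sets these group means apart: PTX minus 231T was at least 1.03 for higher and at most -1.05 for lower members. The same count over all junctions was not made, so nothing is read from it. The 231T mean was below control for 207 higher and 160 lower members. Members made up a limited share of the junctions that differed in PTX: with no condition on 231T, 1283 junctions were higher (0.515%) and 1386 lower (0.556%).

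A gene name was given by the platform annotation for 624 members, of which 450 were higher and 174 lower, while 36 had several names and 58 had none. The named members lay in 524 genes, 371 of them with higher members and 154 with lower members. BORA, whose protein activates mitotic kinases, counted in both, with 1 junction higher (8.20, 5.74 and 8.04 in PTX, 5.46, 5.51 and 5.37 in 231T, 5.54, 4.19 and 5.05 in control) and 1 lower (4.65, 3.05 and 3.10 in PTX, 4.65, 4.88 and 8.21 in 231T, 6.99, 6.09 and 4.80 in control). The lower BORA junction overlapped between PTX and 231T, and the higher one did not. Most genes had 1 member, namely 335 of the 371 and 136 of the 154. Genes with 2 or more numbered 36 among the higher, with 115 members, and 18 among the lower, with 38. The genes with several members are named here because of that number, a choice made after their values were seen.

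FN1 held 20 of the 508 higher members, more than any other gene. The medians of its 20 members were 13.20, 12.71 and 13.40 on the PTX arrays, 11.14, 10.96 and 10.12 on the 231T arrays and 10.68, 10.40 and 10.88 on the control arrays. All 3 PTX medians stood above every other array, and the 231T and control medians overlapped. The difference was not particular to these junctions within the gene: of the 52 tested FN1 junctions, 47 were higher by at least 1 and 40 met the PTX criteria, and so were 60 of 76 exon parts higher by at least 1, with a median of 2.27. By the rule, the 20 differ from the other 20 in their 231T value, and the gene's transcript cluster was at 9.62, 9.85 and 8.89 in 231T, against 8.85, 8.70 and 8.90 in control. The number of FN1 members was 13 without 231T replicate 3, whose FN1 values were the lowest of the 3, and 25 without 231T replicate 2.

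CDH11 encodes cadherin-11, a cell adhesion protein of mesenchymal cells, and held 7 higher members. Their medians were 13.06, 11.84 and 11.86 in PTX, 8.99, 9.55 and 8.52 in 231T and 9.07, 9.47 and 9.51 in control. The PTX arrays lay more than 2 above all others, and 231T and control overlapped. Of 24 CDH11 exon parts, 17 were higher by at least 1 (median 2.34), and its transcript cluster differed by 1.96 in PTX and by -0.02 in 231T. DST, which encodes dystonin, a linker of the cytoskeleton to adhesion complexes, held 6 members among 118 tested junctions. Its member medians were 9.89, 8.44 and 8.78 in PTX, 7.32, 7.50 and 5.57 in 231T and 6.19, 6.40 and 6.80 in control. PTX overlapped neither of the other groups, and the count of DST members was 18 without PTX replicate 2 and 3 without 231T replicate 3.

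Among the genes of chromosome structure and mitosis, MKI67 held 5 members, whose medians were 14.20, 14.16 and 14.35 in PTX, 12.04, 12.18 and 11.03 in 231T and 11.00, 12.12 and 11.99 in control. The PTX arrays were close to each other and above all others. Of 25 exon parts of MKI67, 22 were higher by at least 1 (median 1.86). PCNT, which encodes the centrosome scaffold pericentrin, held 5 members, with medians of 10.35, 9.29 and 8.90 in PTX, 8.32, 8.36 and 7.29 in 231T and 7.69, 7.37 and 7.25 in control. SMC4, a core subunit of condensin, held 4, with medians of 13.07, 11.26 and 11.36 in PTX, 10.27, 8.55 and 9.76 in 231T and 9.18, 8.86 and 9.62 in control. For both genes PTX replicate 1 was the highest array and the groups of PTX and control did not overlap. The transcript cluster of SMC4 was above control by 1.3 in PTX and 1.36 in 231T, and that of PCNT by 0.86 in PTX and 0.92 in 231T.

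CENPF (a kinetochore protein), HMMR (a spindle-associated hyaluronan receptor), NCAPG, SMC1A and SMC3 (cohesin subunits that hold sister chromatids together) held 3 higher members each. Their exon parts had median differences of 1.61 for CENPF, 0.64 for HMMR, 1.25 for NCAPG, 1.41 for SMC1A and 0.97 for SMC3. The NCAPG member medians were 12.26, 10.49 and 10.07 in PTX, 10.06, 7.25 and 9.44 in 231T and 8.51, 8.65 and 8.04 in control. NCAPG shows that a junction near control in 231T need not stand for its gene: the transcript cluster differed from control by 1.20 in PTX and by 2.18 in 231T. Without 231T replicate 2, which was the lowest of its group on these junctions, NCAPG held 0 members. The transcript cluster of SMC1A was likewise above control by 1.25 in PTX and by 1.37 in 231T.

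ASPM (a spindle pole protein), CENPE (a kinetochore motor), CASC5 (now KNL1, a kinetochore scaffold) and NIPBL (the cohesin loader) held 2 members each. The exon-part medians of these genes in PTX were 0.81, 1.24, 0.83 and 0.67, so that only CENPE reached 1. Their transcript clusters were above control in both groups, by 0.86, 1.05, 0.84 and 0.61 in PTX and by 0.71, 0.69, 0.97 and 0.52 in 231T. The other genes with 3 higher members were RBM25, an RNA-binding splicing regulator (exon-part median 1.0), PIK3C2A, a lipid kinase of membrane traffic (0.41), and TMEM63A, a mechanically gated ion channel (0.80). The clusters of RBM25, PIK3C2A and TMEM63A were above control by 0.86, 0.40 and 0.62 in PTX and by 0.96, 1.09 and 0.57 in 231T. Genes with 2 members further included SPTAN1, an alpha-spectrin (1.02), KTN1, which encodes kinectin (1.05), and C3, complement component 3 (0.76). In 231T the transcript cluster of KTN1 was above control by 0.80, while those of SPTAN1 and C3 were at -0.16 and -0.25. In FRMD3 (-0.03) and ZNF280C (-0.08) 2 junctions were higher while the exon parts of the gene were at control. The FRMD3 members had medians of 14.87, 17.67 and 14.02 in PTX, 13.90, 12.55 and 13.10 in 231T and 13.54, 13.95 and 12.18 in control, so that the lowest PTX array lay just above the highest control array.

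**Figure D2:**
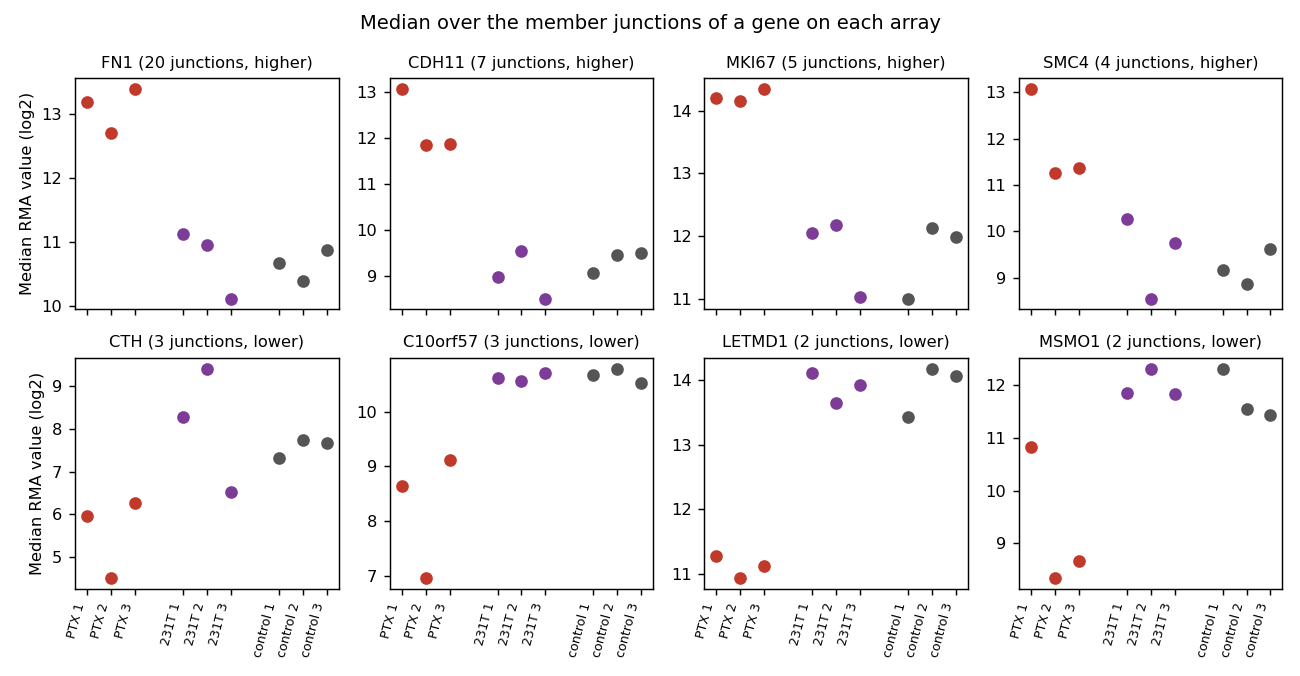
Median RMA log2 value over the member junctions of a gene on each array, for 4 genes with higher members (top) and 4 with lower members (bottom), with PTX in red, 231T in purple and control in grey. The vertical axis differs between genes. PTX stands apart from control in each, as the rule requires, and CTH shows 231T replicate 3 (6.52) below the control arrays.

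Lower members were spread more thinly. CTH encodes cystathionine gamma-lyase, which makes cysteine from cystathionine, and held 3, with medians of 5.97, 4.51 and 6.28 in PTX, 8.28, 9.41 and 6.52 in 231T and 7.31, 7.75 and 7.67 in control. All PTX medians were below all others, and the 231T arrays lay on both sides of control. The count of CTH members was 1 without 231T replicate 3. C10orf57 (now TMEM254, a membrane protein) also held 3, with medians of 8.65, 6.95 and 9.13 in PTX, 10.62, 10.57 and 10.72 in 231T and 10.68, 10.79 and 10.52 in control. Here the 231T and control arrays all lay between 10.52 and 10.79, and PTX lay lower on all 3. Of its 15 tested junctions, 5 were lower by at least 1. The exon parts of C10orf57 were at -1.43 in PTX and -0.98 in 231T, and its transcript cluster at -0.94 and -0.22.

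LETMD1, which encodes a mitochondrial membrane protein, held 2 lower members, with medians of 11.28, 10.93 and 11.13 in PTX, 14.11, 13.65 and 13.93 in 231T and 13.44, 14.18 and 14.07 in control. PTX was lower than every other array by more than 2. The exon parts of LETMD1 had a median difference of -1.83 in PTX and -0.90 in 231T, and its transcript cluster was at -1.43 and -0.57. MSMO1, an enzyme of cholesterol synthesis, held 2, with medians of 10.83, 8.34 and 8.66 in PTX, 11.86, 12.30 and 11.83 in 231T and 12.32, 11.54 and 11.43 in control. PTX replicate 1 stood just below the control arrays, and the other PTX arrays much further. CLDN1 (claudin-1, of tight junctions), CRIM1 (a membrane protein that binds bone morphogenetic proteins), COPZ1 (a coat protein of Golgi transport), WIPI1 (an autophagy protein) and ANXA3 (an annexin) held 2 each, with exon-part medians of -0.68, -1.84, -1.54, -1.67 and -1.11. In 231T the exon parts were also below control for CRIM1 (-1.44), COPZ1 (-1.0) and WIPI1 (-1.09), with transcript clusters at -1.37, -1.06 and -0.89. The 2 members of TRIM16 and the 2 of TRIM16L had the same values, so these paralogs cannot be told apart.

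The 12 higher and 12 lower named junctions with the largest differences were named by rule. The largest was in NIN, which encodes the centrosome protein ninein, at 13.45, 6.75 and 13.30 in PTX, 5.71, 3.73 and 9.28 in 231T and 6.20, 4.68 and 5.43 in control, a difference of 5.73. PTX replicate 2 was far below the other PTX arrays and just above the highest control array. A junction of MSL3, a subunit of a histone acetyltransferase complex, differed by 5.48, with 7.05, 9.19 and 13.62 in PTX, 4.40, 3.27 and 4.27 in 231T and 6.96, 2.88 and 3.57 in control, while the exon parts of MSL3 had a median difference of 0.04. The NUDCD1 junction (5.04) rested on 1 array, with 17.20, 6.97 and 6.58 in PTX, and was at 1.56 without PTX replicate 1. NUDCD1 had 3.77, 5.38 and 5.61 in 231T and 4.91, 5.05 and 5.67 in control.

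More even across the PTX arrays were the junctions of C3 and CENPI. The C3 junction was at 7.06, 8.31 and 8.56 in PTX, 4.05, 2.51 and 2.52 in 231T and 3.41, 3.70 and 3.55 in control (difference 4.42), so that it was near the low end of the scale outside PTX. The junction of CENPI, a centromere protein, was at 12.14, 13.18 and 13.07 in PTX, 8.66, 11.10 and 7.45 in 231T and 8.72, 8.55 and 8.26 in control (4.29). The exon parts of CENPI were above control by 0.59 in PTX and by 1.72 in 231T, and its transcript cluster by 0.60 and 1.91. The IL18 junction, of the gene for the cytokine interleukin-18, was at 9.55, 8.78 and 8.86 in PTX, 8.39, 4.86 and 3.18 in 231T and 4.53, 5.15 and 3.79 in control (4.58). Its 231T mean was within 1 of control only as an average of separate values, and the exon parts of IL18 differed the other way, by -0.80.

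JAG1, a Notch ligand, had a junction at 10.39, 12.43 and 11.93 in PTX, 9.71, 7.80 and 7.82 in 231T and 8.63, 7.47 and 6.82 in control (3.94). It was the only gene among the 12 whose exon parts reached 1 (median 1.50), and its transcript cluster was above control by 1.42 in PTX and by 1.99 in 231T. For CASC5 the junction differed by 4.15 and the exon parts by 0.83. In OLA1, an ATPase (4.44), C17orf104, now MEIOC, a meiosis gene (3.90), and NCALD, a neuronal calcium sensor (3.86), the exon parts were at 0.02, -0.11 and -0.01. The 231T arrays of these junctions were at 16.10, 10.73 and 10.02 for OLA1, 7.30, 2.17 and 5.21 for C17orf104 and 7.45, 2.38 and 7.67 for NCALD. The WDYHV1 junction (now NTAQ1, a glutamine amidase, 4.37) stood against exon parts at -0.84. The lowest PTX array of the C17orf104 junction (7.49) was just above its highest control array (7.39).

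Of the 12 lower named junctions, 7 lay in genes whose exon parts were lower by 1 or more. XPOT, which exports tRNA from the nucleus, had a junction at 9.01, 7.06 and 8.40 in PTX, 12.64, 11.76 and 10.03 in 231T and 12.79, 11.60 and 10.73 in control (-3.55, exon parts -1.03). TXNRD1, a thioredoxin reductase of redox defence, was at 5.34, 3.71 and 5.50 in PTX, 8.74, 8.08 and 6.77 in 231T and 8.34, 8.25 and 7.32 in control (-3.13, exon parts -2.17). ASNS, asparagine synthetase, was at 12.21, 11.74 and 13.08 in PTX, 15.56, 16.68 and 13.89 in 231T and 15.58, 14.83 and 15.35 in control (-2.91, exon parts -1.96). In all 3 genes every PTX array was below every 231T and control array, although their transcript clusters were above control in 231T, by 2.28 for XPOT, 1.65 for TXNRD1 (exon parts 2.16) and 0.82 for ASNS. The others of the 7 were LETMD1 (-2.98), C10orf57 (-2.91), MSMO1 (-2.91) and CD68, a lysosomal glycoprotein of macrophages (-2.90). The transcript cluster of CD68 was below control by -1.29 in PTX and by -1.81 in 231T, where its exon parts were at -2.15.

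The remaining 5 named lower junctions were in genes whose exon parts were within 0.4 of control. The largest difference of all lower members, -4.15, was in SYNPO2, an actin-binding protein, at 4.51, 2.80 and 5.32 in PTX, 2.57, 6.69 and 14.73 in 231T and 8.88, 8.92 and 7.26 in control. The 231T arrays spanned a wider range than PTX and control together, and only their mean was near control. ANKRD31, a gene of meiotic recombination (-3.68), was at 7.69, 4.79 and 3.46 in PTX, 13.05, 9.14 and 6.10 in 231T and 8.64, 8.07 and 10.26 in control. WDR75, a ribosome biogenesis factor (-3.44), was at 5.67, 5.90 and 2.61 in PTX, 4.51, 7.19 and 10.40 in 231T and 8.48, 9.12 and 6.90 in control. In both genes the 231T arrays lay on both sides of control, and 1 or more of them overlapped PTX. RNF125, a ubiquitin ligase, differed by -2.95. FHL2, a LIM-domain cofactor (-2.86), was at 6.85, 6.42 and 7.62 in PTX, 9.39, 10.07 and 7.62 in 231T and 10.66, 9.48 and 9.34 in control.

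Each member was set against the exon parts of its host gene. Host genes with at least 4 tested exon parts were available for 445 higher and 174 lower members. The median exon part was higher by 1 or more for 80 of the 445 (18.0%, 33 genes) and lower by 1 or more for 47 of the 174 (27.0%, 35 genes), against 0.753% and 1.55% of 210225 junctions. It was within 0.25 of control for 205 higher members (46.1%, 201 genes) and 66 lower members (37.9%, 64 genes), against 66.8% of all junctions. The rest lay between in the same direction (141 and 52) or pointed the other way (19 and 9). Both measures come from the same arrays, so these shares are descriptions, and the limits of 1 and 0.25 were chosen after the data were seen. Without PTX replicate 1, the rule chose 1053 higher and 677 lower junctions. Of these, 65 higher and 126 lower ones lay in genes whose exon parts differed by at least 1 in the same direction. With all arrays it was 80 of 508 and 47 of 210.

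**Figure D3:**
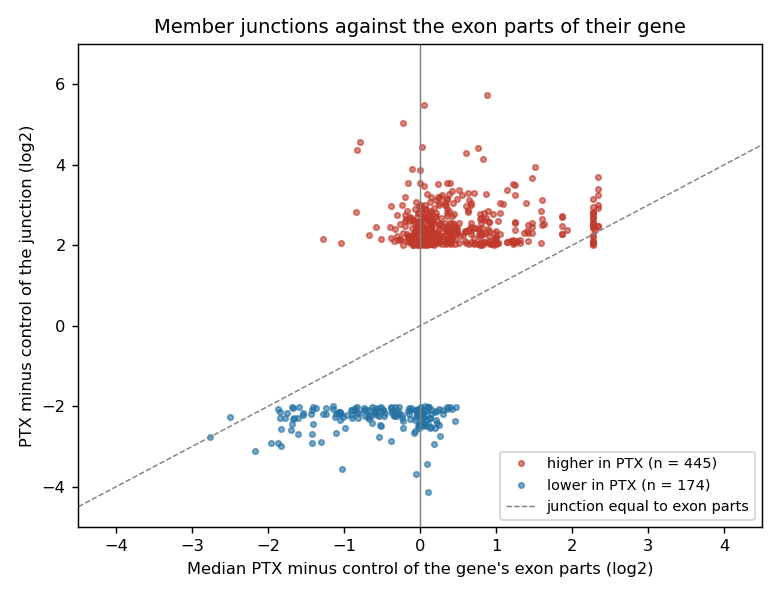
PTX minus control difference of each member junction (vertical axis, log2) against the median difference of the exon parts of its gene (horizontal axis, log2), for 445 higher and 174 lower members. Many points stand near 0 on the horizontal axis (205 higher and 66 lower within 0.25), and the columns at 2.27 and 2.34 are the members in FN1 and CDH11.

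Where the exon parts differed by 1 or more, many other junctions of the gene did so too. A median of 70.9% of them were higher by at least 1 beside higher members and 54.2% lower by at least 1 beside lower members. The medians are over members, so a gene with several counts several times, as FN1 did with 20 and CDH11 with 7 higher members. Beside members whose host exon parts were within 0.25 of control, the medians were 7.85% and 3.71%. Such a member was not always the only one of its gene to differ: 59 of 204 higher and 29 of 66 lower ones with another tested junction had none other that differed by at least 1 in the same direction, against 0 of 80 and 0 of 47 in genes that differed by 1 or more. In PTX, 231T and control the medians of the group means were 11.76, 9.36 and 9.06 for higher members in genes that differed as a whole, and 7.55, 5.21 and 5.02 for those in genes within 0.25 of control. For lower members they were 9.95, 11.72 and 12.26 in genes that differed as a whole and 3.68, 5.85 and 6.03 for those in genes within 0.25 of control, whose PTX median was thus under the filter of 3.89. All 9 leave-outs kept 22.5% of the higher members in genes that differed as a whole and 15.6% of those in genes within 0.25 of control, and 31.9% and 7.58% of the lower members. The 231T exon parts of the host were also higher by 1 or more for 19 of the 80, and also lower by 1 or more for 14 of the 47.

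Values that the choice did not use were had by choosing junctions without 1 PTX and 1 control array and reading the difference on the 2 arrays left out, in all 9 combinations. The combinations share arrays and are not independent. Junctions chosen as higher numbered 1089 to 1731 and had a median difference of 2.30 on the choosing arrays (median of the 9). On the arrays left out, their median difference was 0.04 to 0.72, and 51.4% to 68.8% kept their sign, against 50.4% to 53.8% of all tested junctions that were above 0. At least 2 in the same direction was reached by 11.0% to 18.5%, against 2.87% to 5.30% of all junctions. Junctions chosen as lower numbered 349 to 847, had a left-out median of -0.85 to -0.17, and kept their sign in 55.0% to 72.9%, against 46.2% to 49.6% of all junctions below 0. At least 2 in the same direction was reached by 8.53% to 20.9% of them, against 2.25% to 4.73%.

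Split by the host gene on the choosing arrays, a division made after the data were seen, the left-out differences were as follows. Junctions chosen as higher in such genes (49 to 210 per combination) had left-out medians of 0.90 to 2.31, and a median of 90.8% kept their sign. All tested junctions of such genes had left-out medians of 0.51 to 1.55. Junctions chosen as higher in genes within 0.25 of control (328 to 917) had left-out medians of 0.00 to 0.58, against 0.02 to 0.11 for all junctions of such genes. For lower junctions the left-out medians were -2.58 to -0.71 in genes that differed as a whole (14 to 167), against -1.38 to -0.54 for all junctions of such genes. They were -0.21 to 0.18 in genes within 0.25 of control (165 to 266), where a median of 49.6% kept their sign, against 0.02 to 0.11 for all junctions of such genes. Junctions in genes that differed by 0.25 to 1 in the same direction had left-out medians of 0.24 to 0.73 where chosen as higher (221 to 413) and of -1.53 to -0.21 where chosen as lower (47 to 333). Those with fewer than 4 host exon parts were at -0.29 to 0.87 for higher (117 to 332) and -1.04 to -0.16 for lower (65 to 108), and those whose host differed the other way at -0.02 to 0.63 (38 to 175) and -0.92 to 0.84 (29 to 42).

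**Figure D4:**
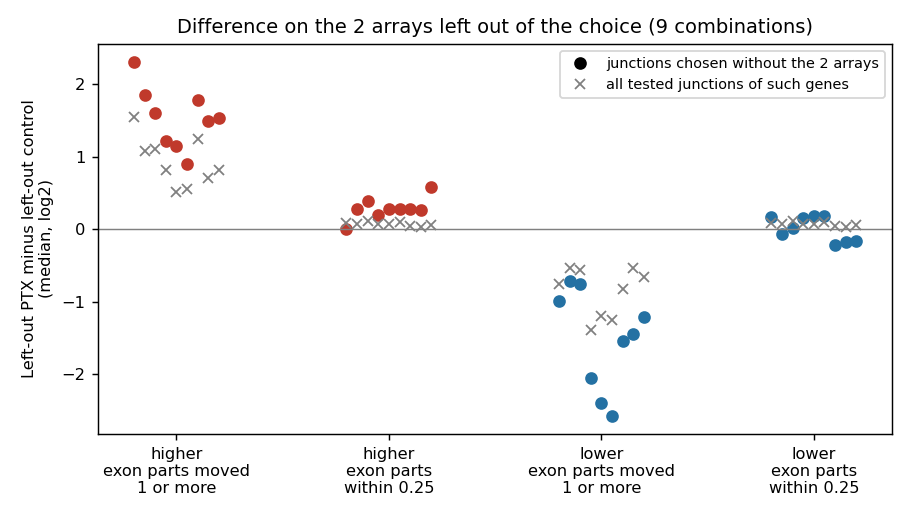
Median difference between the PTX array and the control array left out of the choice (vertical axis, log2), for junctions chosen on the other arrays, split by direction and by the exon parts of the host gene. Each of the 9 combinations is 1 point, and crosses give all tested junctions of such genes. Chosen junctions lie between 0.90 and 2.31, and between -2.58 and -0.71, where the exon parts differed by 1 or more, and between -0.21 and 0.58 where they were within 0.25 of control.

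Members were found under every chromosome code from 1 to 22 and X. By the code in the probe set ID, the share of higher members was highest for code 13 (0.380%), code 4 (0.337%), code 21 (0.328%) and code 2 (0.311%). For lower members code 10 stood first with 30 members (0.293%), followed by code 14 (0.132%) and code 17 (0.130%). Among the codes with members, code 19 had the lowest shares, 0.0807% higher and 0.0179% lower. Members of 1 gene share a code, and the 20 FN1 junctions are a part of the 60 higher members of code 2, so these shares were not tested.

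**Figure D5:**
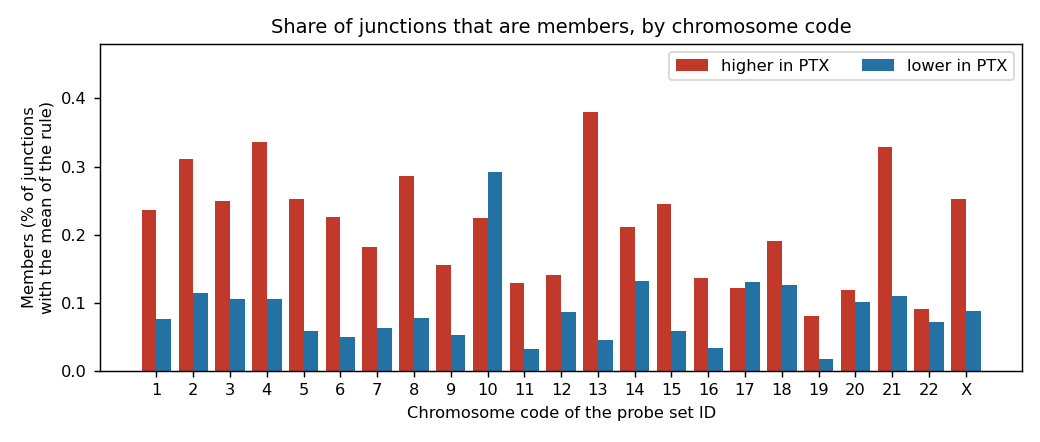
Share of the junctions with the rule's mean that were members (vertical axis, %), by the chromosome code of the probe set ID, for higher (red) and lower (blue) members. Code 10 has the highest share of lower members (0.293%) and code 13 the highest of higher members (0.380%).

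Exon parts that met the same rule numbered 171 higher (0.0392%) and 153 lower (0.0351%) of 436344, so that members were a larger share among junctions than among exon parts (0.204% higher and 0.0843% lower). In the limma fit over 684791 exon-part and junction probe sets, all 718 members were tested, and 55 passed a Benjamini-Hochberg adjusted p of 0.05 (31 higher and 24 lower), beside 0.129% of the junctions tested, with 0.0442% higher and 0.0847% lower. The rule used that contrast, so nothing is read from the count. It was 0 with replicate number as a block, in a fit of PTX and control alone, and without any 1 array other than 231T replicate 3, without which it was 37.

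At gene level, 882 of 50646 transcript clusters differed between PTX and control (limma adjusted p under 0.05; 1.74%, with 0.436% higher and 1.31% lower), a count that ran from 135 without control replicate 3 to 1276 without PTX replicate 1. TRA2A, the gene delivered to the 231T cells, was at 8.32, 7.82 and 7.60 in PTX, 9.37, 9.42 and 9.19 in 231T and 6.50, 7.15 and 6.95 in control. All PTX and 231T arrays were above all control arrays. TRA2A passed the limma test in 231T (2.46, adjusted p = 0.000266) and not in PTX (1.04, adjusted p = 0.0539). Of the splicing factor genes listed, 6 of 9 were matched to a transcript cluster. Of these, 6 of 6 passed the test as higher in 231T, where 9.75% of all clusters did. In PTX 0 of 6 passed in either direction, with 2 of them (TRA2A and SRSF1) at an unadjusted p under 0.05. Their median PTX minus control difference was 0.53, against 0.01 over all clusters. RBM39 was the only one of them with a member junction, which was lower.

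Of the genes of paclitaxel targets and drug handling, 12 of 14 were matched to a transcript cluster, with 18 clusters tested, 8 of them TUBB, and 0 member junctions. TUBB4B, a beta-tubulin that paclitaxel binds, was at 14.91, 14.90 and 15.00 in PTX, 14.89, 14.72 and 14.85 in 231T and 13.76, 14.16 and 13.82 in control. It rose in PTX by 1.03 (SE 0.12, limma adjusted p = 0.00955), the only 1 of the 18 clusters to pass in either direction. In 231T it was above control by 0.91 (limma adjusted p = 0.00116). TUBB2A (0.91, limma adjusted p = 0.0624) and TUBA1A (0.55, limma adjusted p = 0.119) had an unadjusted p under 0.05 in PTX. The median over the 18 clusters was 0.01, which was also the value of most TUBB clusters. Those TUBB clusters, on alternative haplotype contigs, had nearly the same values (16.75 to 16.84), so they weigh on that median as repeats. The remaining TUBB cluster was at 19.15 to 19.19 on all arrays, near the largest exon-level value of 19.93, where a rise may not show. Of the mitotic checkpoint genes, 7 of 8 were matched to a transcript cluster, and 0 passed in PTX in either direction (limma, median 0.08). An unadjusted p under 0.05 was seen for 1 of them, PLK1, a mitotic kinase (0.63, limma adjusted p = 0.162). None of them held a member under a single gene name, while 1 higher member (2.74) carried several names, BUB1B of this list among them. PTPRC, a leukocyte marker, held 1 higher member while its transcript cluster lay between 3.53 and 3.92 on all arrays.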

How the data were processed

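RNA of MDA-MB-231 cells on 9 arrays (3 each of PTX, 231T and control) was measured with Affymetrix exon-part and junction probe sets. The authors deposited RMA log2 values made with Affymetrix Expression Console 1.3.1, per the submitters' processing notes. RMA settings, the genome build and whether all arrays were normalized together are not given in the sources used here. As deposited, the log2 values entered the analysis with no further normalization and without replicate pairing. Members were found by the stated rule, and gene names came from the platform annotation, with older symbols brought up to date through RefSeq. The members and gene lists were chosen with earlier results of these data known. All PSR (exon-part) and JUC (junction) probe sets whose mean reached the 25th percentile were fitted in 1 model with limma 3.58.1 in R 4.3.3 (lmFit, eBayes, Benjamini-Hochberg), and transcript clusters likewise from the gene-level table, a test that was added. The fit was tested on simulated data. The named junctions are the 12 higher and 12 lower with 1 gene name and the largest difference; genes with 2 or more members, and single members named under other observations, were chosen after their values were seen. Gene lists comprised splicing factors, paclitaxel targets and drug handling, mitotic checkpoint, and markers of the line, of fibroblasts and of leukocytes. Junction probe sequences and coordinates were not used here. The number of arrays limits the precision. Alternatives were other limits of the rule, filters, normalizations and fits, and leaving out each array.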

Additional observations from a re-analysis of the deposited data

Results flagged for a closer look

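A direct test of PTX against 231T at gene level (limma, adjusted p under 0.05) found differences in 14 transcript clusters of the gene lists whose genes held no member junction, beside 22.2% of all 50646 clusters. Of the splicing factors, 5 were lower in PTX than in 231T: TRA2A by -1.42, TRA2B by -1.45, SRSF1 by -1.83, SRSF3 by -1.43 and SRSF7 by -1.62. Of the genes of paclitaxel targets and drug handling, TUBA1A (0.55), MAP4 (1.15), which binds microtubules, and ABCC1 (0.42), a drug exporter, were higher in PTX than in 231T. Against control, MAP4 was at -0.26 in PTX and -1.41 in 231T, and ABCC1 at -0.15 and -0.57, so neither was above control in PTX. TUBA1A was at 0.55 and -0.001. Among the checkpoint genes, MAD2L1 (-1.36) and AURKB (-0.60) were lower and PLK1 (1.88) was higher in PTX than in 231T. Their differences from control in PTX and 231T were -0.11 and 1.26 for MAD2L1, 0.08 and 0.67 for AURKB, and 0.63 and -1.25 for PLK1. CD44 was lower by -0.72, and both KRT8 clusters were higher, by 1.58 and 1.24. This CD44 cluster was above control by 0.25 in PTX and 0.98 in 231T, and the KRT8 clusters stood at 1.04 and 0.60 in PTX and -0.54 and -0.65 in 231T. Of the listed genes that did hold members, PTX minus 231T was -1.57 for RBM39 and 1.34 for FN1. The 231T values stood otherwise to the exon-level table than the PTX and control values did, and the part of that in these differences was not tested.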

How the results depend on the processing

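The 508 higher and 210 lower members depend on the limits of the rule: 63 and 5 had a PTX difference of at least 3, and 272 and 93 had a 231T difference under 0.5. Centring each array on its median gave 412 higher and 328 lower, of which 370 and 195 were members as reported; quantile normalization gave 464 and 270, of which 395 and 178 were. Without 1 array the numbers were 466 (231T replicate 3) to 1053 (PTX replicate 1) higher and 205 (231T replicate 1) to 677 (PTX replicate 1) lower. For the 508 and 210 members chosen on all 9 arrays, the median PTX minus control difference without 1 array was 2.28 to 2.41 and -2.41 to -2.07. These members were chosen for that difference, so the range does not show how far it would hold on other arrays. The limma count of 55 was 97 with array weights, 89 with a filter at the 50th percentile, 0 with PTX and control alone and 0 to 37 without 1 array. With replicate number as a block it was 0. In that limma fit 679 members had an unadjusted p under 0.05, beside 31968 of the 248998 junctions tested. The rule used that contrast, so nothing is read from the 679. Deviations of PTX and control arrays of the same number correlated at -0.09, -0.02 and 0.02, and those of other numbers at -0.07 to 0.08. These values show no large shift shared by number. They cannot show whether arrays of 1 number were made together, and 231T was not compared. Genes with exon parts differing by at least 0.5 held 156 higher and 82 lower members. The median 231T minus control difference of 0.17 for higher and -0.40 for lower members was 0.57 and -0.01 with centring and 0.45 and -0.15 after quantile normalization. The medians over the 9 held-out combinations kept their direction after quantile normalization, but with PTX replicate 1 and control replicate 1 left out the higher junctions then had a held-out median of -0.03, with 48.5% keeping their sign, against 0.04 and 51.4% as deposited. The gene-level count of 882 was 148 with the block. Low signal limits the 62 higher members whose control mean, and the 56 lower members whose PTX mean, was below 3.89.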

Other observations

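Genes with 1 member junction are given here for a few genes picked after their values were seen. MCM5, a subunit of the replicative helicase, had a junction at 15.65, 17.15 and 15.91 in PTX, 14.47, 13.92 and 13.95 in 231T and 13.36, 15.02 and 13.95 in control, with exon parts at a median difference of 1.32. MCM4, of the same helicase, was at 10.85, 11.14 and 10.97 in PTX, 9.53, 9.84 and 7.90 in 231T and 9.87, 9.30 and 7.61 in control, with exon parts at 1.23. For UHRF1, which maintains DNA methylation, the values were 11.47, 12.28 and 11.69 in PTX, 9.25, 9.80 and 9.42 in 231T and 9.04, 9.91 and 10.18 in control. In all 3 genes the PTX arrays lay above every other array. TOP2A, a topoisomerase of dividing cells, was at 17.78, 16.69 and 16.20 in PTX, 14.98, 14.32 and 12.34 in 231T and 14.29, 15.18 and 14.96 in control.

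MX2 and IFI16, which interferon is known to induce, held 1 higher member each. The MX2 junction, of an antiviral GTPase, was nearly the same on the PTX arrays at 8.64, 8.66 and 8.65, against 4.93, 5.72 and 6.13 in 231T and 5.89, 5.82 and 6.55 in control, while the exon parts of MX2 had a median difference of 0.41. IFI16, a DNA sensor, was at 9.71, 9.57 and 8.36 in PTX, 7.11, 6.04 and 7.0 in 231T and 7.95, 7.01 and 6.53 in control, with exon parts at 1.02. Among lower members, the junction of DKK1, a secreted Wnt inhibitor, was at 16.30, 17.20 and 16.22 in PTX, 19.12, 19.04 and 19.34 in 231T and 18.67, 18.80 and 18.74 in control, with exon parts at -1.76. CTGF, a matrix-associated growth factor, was at 7.30, 5.89 and 7.26 in PTX, 9.44, 9.20 and 7.88 in 231T and 8.86, 9.01 and 9.43 in control, with exon parts at -2.50. In DKK1 and CTGF all PTX arrays lay below all others. ALDH18A1, an enzyme of proline synthesis, was at 7.82, 6.47 and 7.41 in PTX, 8.84, 8.85 and 8.10 in 231T and 9.87, 9.30 and 9.41 in control, and GOT1, an aspartate aminotransferase, was at 10.31, 9.04 and 10.43 in PTX, 11.42, 12.81 and 9.76 in 231T and 11.62, 12.37 and 12.37 in control.

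Several junctions differed in PTX with little difference in their gene. The PDHB junction, of a pyruvate dehydrogenase subunit, was at 6.56, 7.17 and 7.17 in PTX, 4.29, 4.03 and 3.54 in 231T and 4.28, 4.43 and 4.46 in control, with exon parts at 0.00. The junction of SUZ12, a Polycomb subunit, was at 9.88, 9.70 and 9.40 in PTX, 6.51, 7.31 and 5.88 in 231T and 5.90, 6.75 and 7.09 in control, with exon parts at 0.13. In GPATCH3 the junction was at 12.67, 11.84 and 11.50 in PTX, 9.18, 9.08 and 9.15 in 231T and 9.26, 9.87 and 9.02 in control, with exon parts at -0.10. In all 3 the PTX arrays lay well above every other array, which the rule requires for the control arrays. Junctions chosen as higher in genes within 0.25 of control had left-out medians of only 0.00 to 0.58, and these 3 were not tested apart.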
